A study of Mus musculus with 21 samples.

Results

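Mouse embryonic stem cells lacking Trim71 were compared directly with cells lacking Ago2, both untransfected, as 3 libraries against 3 out of the 21 total RNA libraries of the series. Every group stems from parental cells of the strain 129S6/SvEvTac with a GFP reporter for TRIM71 binding (GFP_5xT71BS) and a stably integrated FLAG-tagged Cas9 with blasticidin resistance, so the controls carry these too. The groups were Trim71KO (Trim71-/-), Ago2KO (Ago2-/-) and W, the unedited parental cells, with 3 biological replicates each, all grown on gelatin in serum with LIF and sequenced as Experiment 1. In Experiment 2 the same genotypes were sequenced again after transfection with an empty plasmid (Trim71KO_empty and Ago2KO_empty), beside parental cells transfected with a mutant of the T6B peptide (T6B_MUT). Parental cells transfected with the wild-type T6B peptide (T6B_WT) completed that experiment. They entered its fit, and their levels are not described here. The labels do not say how many clones each genotype comprised or whether the clones of both experiments were the same, so genotype and clone cannot be told apart, and p-values measure the spread between these libraries. Of 21210 genes tested, 7256 differed between the knockouts, and 626 of them moved in opposite directions from W, which is the set described in most depth below.

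TRIM71 (LIN-41) is a stem cell protein that binds hairpins in messenger RNAs and lowers the translation or stability of its targets, and it is itself repressed by the let-7 microRNAs as cells differentiate. AGO2 belongs to the Argonaute family and is guided by microRNAs to sites in 3′ UTRs. There it recruits a TNRC6 (GW182) protein and with it the deadenylation machinery. In embryonic stem cells the miR-290 and miR-302 clusters supply much of the microRNA pool and are known to promote rapid cycling and pluripotency. The question posed by the series' title is how distinct silencing pathways converge on TNRC6, and the direct comparison asks where loss of one pathway leaves a transcriptome unlike that left by loss of the other.

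The 5 mature microRNAs below are shown because they share the seed (bases 2 to 8, in capitals) to which 3′ UTRs were matched. Their sequences are from RefSeq (GRCm38.p6), and all were written 5′ to 3′.
mmu-miR-291a-3p: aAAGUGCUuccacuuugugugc
mmu-miR-294-3p: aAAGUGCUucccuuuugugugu
mmu-miR-295-3p: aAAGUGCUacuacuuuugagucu
mmu-miR-302b-3p: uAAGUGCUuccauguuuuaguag
mmu-miR-302d-3p: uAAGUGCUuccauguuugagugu
The match to this seed in a messenger RNA is AGCACTT, searched on the transcript strand alone. Stretches of the 3′ UTRs (GENCODE M21) of 5 genes that recur below are given for comparison, with the match in capitals. Nefm, Neurod1 and Ei24 were lower in Trim71KO and higher in Ago2KO than in W, and E2f2 and Lefty2 the reverse.
Nefm: gcgtcctcgcggctcAGCACTTcttc
Neurod1: ttattgcgttgccttAGCACTTcttt
Ei24: tccagctgtttttttAGCACTTgcca
E2f2, first of 2: ctgactttttcaagaAGCACTTaacg
Lefty2: ccatcacccagtttaAGCACTTacat
The same letters thus occurred in genes of both directions. A match is a description of the sequence and not a measured binding site.

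Sequencing depth was 35.8 M to 49.2 M counts per library in Trim71KO, 29.6 M to 50.8 M in Ago2KO and 47.2 M to 49.1 M in W. Levels are given as CPM (counts scaled to the TMM-adjusted library size), as the values of replicates 1, 2 and 3 in that order, and fold changes are log2 values of Trim71KO over Ago2KO unless another pair is named. Genes counted as called had an adjusted p under 0.05 in edgeR's quasi-likelihood test (Benjamini-Hochberg). The summed RPKM of 6 embryonic stem cell markers (Pou5f1, Sox2, Nanog, Esrrb, Zfp42, Dppa5a) was 2135 to 2406 over the 9 libraries. Of 8 fibroblast markers 3 were in the table. Their sum was 3.38 to 3.83 RPKM in Trim71KO, 2.23 to 2.50 in Ago2KO and 2.22 to 2.43 in W. That sum was almost wholly Thy1, with mean RPKM of 3.45 in Trim71KO, 2.19 in Ago2KO and 2.15 in W. It therefore says little about fibroblasts, and a longer list had 2 higher and 4 lower of 6 tested in Trim71KO against Ago2KO. The 7 primitive endoderm markers summed to 1.28 to 1.36 RPKM in Trim71KO, 1.86 to 2.33 in Ago2KO and 6.19 to 6.98 in W. The primitive endoderm sum was thus lower in both knockouts than in W, and the part of either sum in the other results was not tested.

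The edited genes were examined first. Ago2 (ENSMUSG00000036698, chromosome 15, 73095844 to 73184935, minus strand, GRCm38) stood at 43.6, 42.5 and 39.8 CPM in Ago2KO, at 142, 156 and 133 CPM in Trim71KO and at 153, 134 and 140 CPM in W. Ago2KO lay below both other groups without overlap, and Trim71KO overlapped W. The log2 fold change of Ago2 was 1.78 (SE 0.07, adjusted p 1.78e-10 by edgeR quasi-likelihood), or −1.76 for Ago2KO against W. Trim71 (ENSMUSG00000079259, chromosome 9, 114507133 to 114564369, minus strand) stood at 412, 416 and 459 CPM in Trim71KO, 522, 504 and 505 CPM in Ago2KO and 602, 602 and 618 CPM in W. Trim71 messenger RNA was therefore still abundant in the libraries labelled Trim71-/-, at −0.50 log2 against W, and a gene total does not show whether the edited stretch was read. Ago2 overlaps Chrac1 and Trim71 overlaps C130032M10Rik on the opposite strand, and whether the counting used strand is not given in the sources used here.

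The 2 knockouts differed widely and almost symmetrically. Of the 21210 genes, 3623 (17.1%) were called higher and 3633 (17.1%) lower in Trim71KO than in Ago2KO, 34.2% in all. In the same fit 32.6% were called between Trim71KO and W and 18.0% between Ago2KO and W. Most differences were small: 443 of the higher and 785 of the lower genes changed by at least 1 on the log2 scale, and 79 and 142 by at least 2. The median log2 fold change over all genes was 0.01, the median of its absolute value 0.22 and the median standard error 0.11. A first principal component with 45.6% of the variance set Trim71KO apart from both Ago2KO and W, and a second with 18.6% set W apart from Ago2KO.

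Of genes averaging at least 2 log2 CPM in the knockouts, Ccr4 showed the largest increase. It encodes a chemokine receptor (chromosome 9, 114490316 to 114504916, minus strand) and had 34.8, 36.0 and 36.8 CPM in Trim71KO, 0.385, 0.627 and 0.352 CPM in Ago2KO and 0.186, 0.340 and 0.541 CPM in W. Trim71KO thus stood far above both other groups, which overlapped. The difference from Ago2KO was 6.37 on the log2 scale (SE 0.17, adjusted p 8.24e-12 by edgeR quasi-likelihood), and that of Ago2KO from W (0.28) was not called. In the annotation Ccr4 lies beside Trim71 on the same strand.

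Cpe, which encodes the peptide hormone-processing carboxypeptidase E, followed with 59.9, 60.6 and 64.4 CPM in Trim71KO and 6.23, 5.84 and 6.23 CPM in Ago2KO, a 10.1-fold difference. W was at 8.22, 6.85 and 7.86 CPM, above every Ago2KO library and below every Trim71KO library. Scml2, a Polycomb-related gene on the X chromosome, had 21.4, 22.3 and 19.1 CPM in Trim71KO, 5.46, 6.47 and 5.86 CPM in Ago2KO and 4.92, 4.11 and 4.03 CPM in W. Here both knockouts were called above W, Trim71KO by 2.26 and Ago2KO by 0.44 on the log2 scale. Mccc2, a subunit of the enzyme that carboxylates methylcrotonyl-CoA in leucine breakdown, showed the other arrangement. It had 16.8, 15.1 and 16.8 CPM in Trim71KO, close to 14.1, 14.3 and 14.8 CPM in W, against 3.88, 3.96 and 3.89 CPM in Ago2KO. Its difference between the knockouts (2.06, SE 0.08, adjusted p 2.39e-10, edgeR quasi-likelihood) therefore lay on the side of Ago2KO, which was −1.88 from W.

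The decreases were likewise of several kinds. Egr1, an immediate early transcription factor and a published TRIM71 target, had 2.23, 1.89 and 1.91 CPM in Trim71KO against 13.2, 14.1 and 12 CPM in Ago2KO and 11.7, 11.7 and 12.2 CPM in W. Against W the log2 fold change was −2.56 in Trim71KO, while Ago2KO overlapped W and was not called (0.14). Galnt6, which starts mucin-type O-glycosylation, had 4.04, 4.11 and 4.24 CPM in Trim71KO, 27.4, 25.7 and 26.8 CPM in Ago2KO and 6.84, 7.19 and 5.80 CPM in W. Most of its difference of −2.69 came from Ago2KO, 2.01 above W, with Trim71KO at −0.68. Smad6, an inhibitor of BMP signalling, had 1.73, 1.70 and 2.95 CPM in Trim71KO and 13.8, 9.31 and 11.8 CPM in Ago2KO, with W between at 5.99, 8.34 and 8.09 CPM. Galnt6 and Smad6 are both in the opposite set described next.

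Of the 626 opposite genes, 235 (1.11% of genes tested) were up in Trim71KO and down in Ago2KO against W, and 391 (1.84%) were down in Trim71KO and up in Ago2KO. All 626 were also called in the direct comparison. The comparisons with W share its 3 libraries, so these counts describe the choice of genes and are no test of it. They rested in part on single control libraries: without W replicate 2 there were 142 and 255 such genes, and without W replicate 3 there were 145 and 259. In 232 of the 235 and 382 of the 391 genes the 3 groups did not overlap and W lay between the knockouts. That arrangement was found in 2.95% of all tested genes with Trim71KO highest and in 3.88% with Ago2KO highest. Changes were mostly modest, with medians of 0.38 in Trim71KO and −0.31 in Ago2KO against W for the first group, and −0.44 and 0.41 for the second. Both changes reached 0.5 in 35 and 104 genes, and reached 1 in 6 and 13 genes.

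Rhox5, an X-linked homeobox gene (chromosome X, 37804842 to 37808876, plus strand), led the genes up in Trim71KO and down in Ago2KO among those of at least 2 log2 CPM. It had 26.3, 22.2 and 23.9 CPM in Trim71KO, 7.06, 7.28 and 7.40 CPM in W and 2.61, 2.91 and 2.93 CPM in Ago2KO. The groups were fully apart, with Trim71KO at 1.74 and Ago2KO at −1.37 against W on the log2 scale, and a difference of 8.59-fold (log2 3.10, SE 0.09, adjusted p 1.25e-11, edgeR quasi-likelihood). Eif4g3, a scaffold of the cap-binding translation initiation complex (chromosome 4, 137993022 to 138208508, plus strand), had 27.9, 28.9 and 26.1 CPM in Trim71KO, 15.3, 15.0 and 14.4 CPM in W and 5.87, 5.98 and 6.33 CPM in Ago2KO. Its difference was 2.19 (SE 0.07, adjusted p 4.09e-11), again with no overlap between any groups. Eif4g3 overlaps other annotated transcripts, among them 1700095J12Rik on the opposite strand.

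Hormad2, a meiotic chromosome axis gene, had 9.76, 8.70 and 9.84 CPM in Trim71KO, 5.14, 4.83 and 4.95 CPM in W and 2.7, 2.94 and 2.50 CPM in Ago2KO. Hars2, the mitochondrial histidyl-tRNA synthetase, had 49.2, 51.2 and 50.4 CPM in Trim71KO, 31.3, 28.7 and 29.4 CPM in W and 18.6, 18.9 and 18.2 CPM in Ago2KO. Both stepped evenly from Ago2KO over W to Trim71KO, with log2 fold changes of 1.81 and 1.44 between the knockouts. Hars2 overlaps Hars on the opposite strand in the annotation, so their reads may not be separate. Sox11, a SoxC transcription factor, was at 23.2, 22.5 and 30.3 CPM in Trim71KO and at 10.6, 10.4 and 9.86 CPM in Ago2KO. St3gal4, a sialyltransferase, and Klhl23, a Kelch-family gene, completed the 8 named genes with differences of 1.62 and 1.47. Lefty2, a secreted inhibitor of Nodal, is described with the Nodal genes below because Experiment 2 gave it the other sign.

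In the reverse direction, Lncenc1, a long non-coding RNA of embryonic stem cells (chromosome 13, 97434970 to 97497007, plus strand), had 14.1, 15.6 and 13.4 CPM in Trim71KO, 62.7, 58 and 55.2 CPM in W and 118, 123 and 111 CPM in Ago2KO. Trim71KO was −2.03 and Ago2KO 1.00 from W on the log2 scale, and the knockouts differed 8.19-fold (log2 −3.03, SE 0.07, adjusted p 1.57e-12, edgeR quasi-likelihood). The transcript C78283 (chromosome 5) had 1.91, 2.03 and 1.58 CPM in Trim71KO, 5.00, 4.60 and 4.20 CPM in W and 11.9, 11.5 and 10.8 CPM in Ago2KO. Ttn, the giant sarcomere protein titin, had 32.7, 32.2 and 22.7 CPM in Trim71KO, 103, 71.5 and 76.0 CPM in W and 162, 180 and 148 CPM in Ago2KO. All 3 groups stayed apart for each of these genes, although replicate 1 of W was well above the other W libraries for Ttn.

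Several of these decreases were in genes known from neurons. Nefm, the medium neurofilament chain (chromosome 14, 68082590 to 68124846, minus strand), had 1.86, 2.53 and 2.64 CPM in Trim71KO, 4.79, 5.19 and 5.16 CPM in W and 11.6, 10.6 and 11.4 CPM in Ago2KO. Its neighbour Nefl, the light chain, had 27.7, 27.0 and 29.6 CPM in Trim71KO, 35.4, 37.7 and 39.0 CPM in W and 75.0, 70.9 and 76.0 CPM in Ago2KO. Neurod1, a proneural transcription factor, had 1.91, 1.67 and 1.79 CPM in Trim71KO, 3.90, 3.30 and 3.47 CPM in W and 7.13, 8.29 and 6.84 CPM in Ago2KO. None of these groups overlapped, and the log2 fold changes were −2.26, −1.39 and −2.04. Nefm and Nefl overlap on opposite strands in the annotation, so their reads may not be separate. Over the whole list of neural lineage genes 13 were tested, of which 6 fell, 2 rose (Map2 and Elavl3) and 5 were not called, with a median of −0.01. That median was −0.26 when chromosome 8 genes were left out of the fit and −0.21 without replicate 3 of Trim71KO. The same list counted 1 higher and 7 lower in Experiment 2. Pax6 was among those that fell but stood at no more than 1.56 CPM in any library.

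Other named genes of this direction were Kdr, the VEGF receptor of endothelial precursors, Hs3st3b1, a heparan sulfate sulfotransferase, Ryr3, a calcium release channel, and Aard. Kdr had 2.21, 1.56 and 1.91 CPM in Trim71KO, 3.84, 3.96 and 3.51 CPM in W and 8.93, 9.81 and 8.63 CPM in Ago2KO. Aard had 9.19, 7.89 and 10.8 CPM in Trim71KO, 19.9, 19.8 and 21 CPM in W and 37.9, 35.5 and 38.1 CPM in Ago2KO. For both, W lay clear of either knockout. Hs3st3b1 and Ryr3 differed by −2.09 and −2.05 between the knockouts, and Ryr3 overlaps Aven on the opposite strand.

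**Figure D1:**
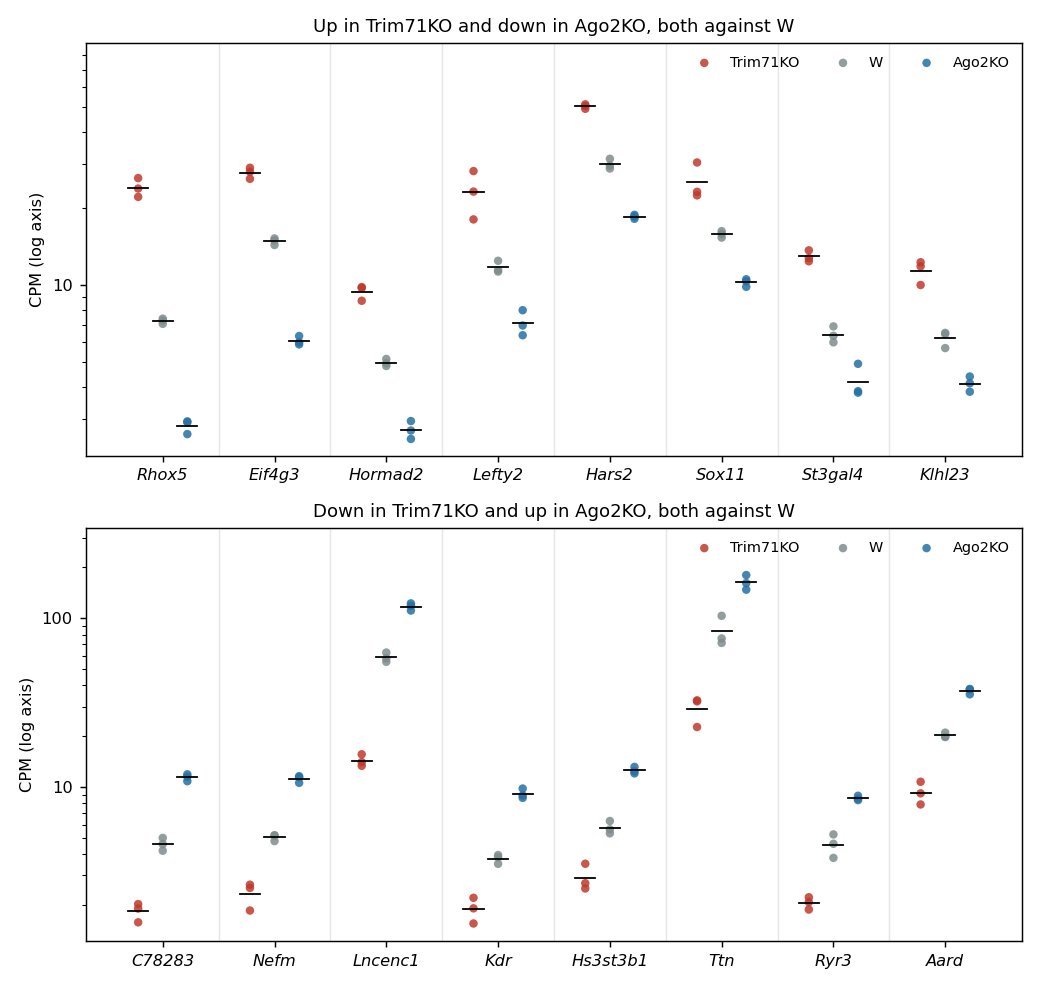
CPM (log axis) in each of the 9 libraries of Experiment 1 for the 8 named genes of each opposite direction, with points for libraries and black bars for group means (n = 3). In every gene shown the W libraries lie between those of Trim71KO and those of Ago2KO without overlap, as for Rhox5 (7.06 to 7.40 CPM in W) and Lncenc1 (55.2 to 62.7 CPM in W).

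The same difference was then measured in Experiment 2, whose libraries had no part in the choice of genes. Of the 235 genes up in Trim71KO and down in Ago2KO, all were tested there, 228 had the same direction and 203 (86.4%) were called higher in Trim71KO_empty than in Ago2KO_empty, where 14.7% of all genes were called higher. Of the 391 genes of the other direction, 390 were tested, 383 had the same direction and 342 (87.7%) were called lower, where 16.9% of all genes were. Genes were called against their direction once in each set, Lefty2 in the first and Tgm1 in the second. The median log2 fold change was 0.55 in the first set and −0.70 in the second, smaller than the 0.73 and −0.87 of Experiment 1, on which the genes had been chosen. In 42 genes of the first set and 120 of the second, edgeR's test over all 21 libraries called a difference between the experiments. The share of all genes with such a call was not counted. Against T6B_MUT, 67 (28.5%) and 117 (30.0%) of the genes were again opposite, where 0.897% and 1.36% of all genes were. T6B_MUT cells carried another plasmid than the knockouts, so plasmid and genotype differ together in that comparison.

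Rhox5 had 16.3, 16.1 and 19.7 CPM in Trim71KO_empty, 2.23, 1.51 and 2.08 CPM in Ago2KO_empty and 3.34, 3.45 and 3.45 CPM in T6B_MUT, a difference of 3.16 between the knockouts. Lncenc1 had 16.6, 16.9 and 15.2 CPM in Trim71KO_empty, 107, 116 and 95.4 CPM in Ago2KO_empty and 49.5, 51.2 and 53.1 CPM in T6B_MUT, a difference of −2.71. Nefm had 1.34, 1.26 and 1.26 CPM, 6.18, 7.12 and 4.91 CPM, and 2.98, 2.61 and 2.30 CPM in the same 3 groups. The control again lay between the knockouts for all 3 genes, but not for every named opposite gene. For example, Klhl23 was below T6B_MUT in both knockouts, by −0.45 in Trim71KO_empty and −1.11 in Ago2KO_empty on the log2 scale. Kdr was above T6B_MUT in both, by 0.76 and 1.77. Sox11 in Trim71KO_empty overlapped T6B_MUT (−0.001). Ago2 itself was at 87.4, 167 and 45.6 CPM in the libraries labelled Ago2KO_empty and at 124, 115 and 114 CPM in Trim71KO_empty, which overlap. Without replicate 2 of Ago2KO_empty, the library with the highest Ago2, 208 and 343 of the opposite genes were called in their direction.

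Over all 20588 genes tested in both experiments, 3957 were called in both, which is 55.1% of the calls of Experiment 1 and 59.9% of those of Experiment 2. Of these, 97.0% had the same direction. The correlation of the log2 fold changes across genes was 0.66, as a description, since genes are not independent replicates.

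**Figure D2:**
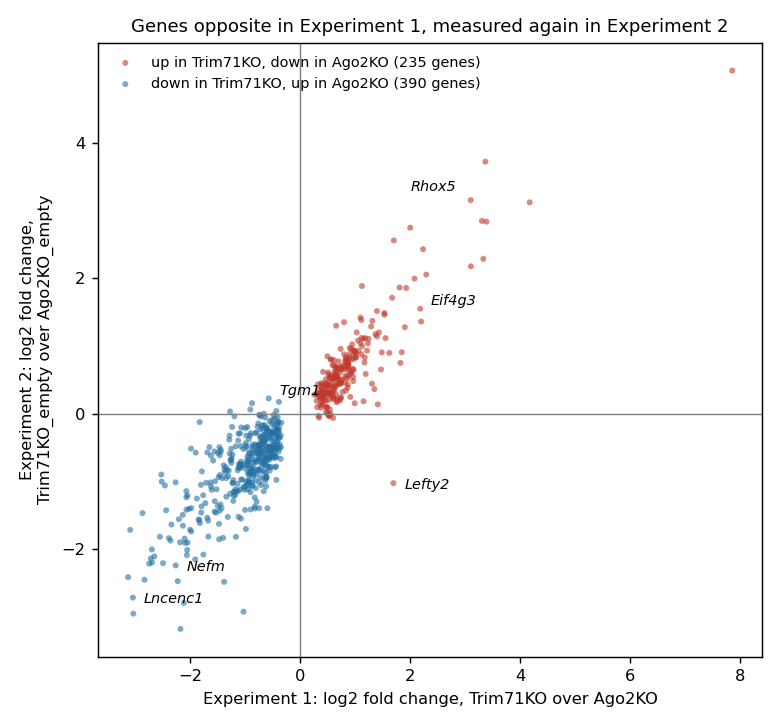
Log2 fold changes of Trim71KO over Ago2KO in Experiment 1 (x axis) and of Trim71KO_empty over Ago2KO_empty in Experiment 2 (y axis) for the opposite genes, 1 point per gene, in 2 colours for the 2 directions. The direction on the x axis is fixed by the choice of genes; on the y axis 228 of 235 and 383 of 390 genes keep it, and Lefty2 lies on the other side at −1.02.

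Naive pluripotency genes were mostly higher in Trim71KO. Of 23 tested, 13 were called higher and 3 lower, with a median of 0.23 against 0.01 over all genes. For every list described here, the shares over all genes tested were 17.1% higher and 17.1% lower, or 34.2% in either direction, and in Experiment 2 they were 14.7% higher and 16.9% lower. Klf4, a factor sustained by LIF, had 311, 291 and 379 CPM in Trim71KO, 200, 169 and 194 CPM in Ago2KO and 179, 199 and 210 CPM in W. Nr5a2, an orphan nuclear receptor of the naive network, had 180, 184 and 170 CPM in Trim71KO, 106, 112 and 103 CPM in Ago2KO and 112, 107 and 104 CPM in W. In both genes Ago2KO overlapped W and Trim71KO stood above. Klf5 and Fgf4 were higher by 0.72 and 0.60, and Nanog and Esrrb by 0.35 and 0.42. Dppa5a went the other way, at 401, 407 and 374 CPM in Trim71KO, 601, 661 and 653 CPM in Ago2KO and 562, 522 and 532 CPM in W (−0.70, SE 0.05, adjusted p 1.05e-07, edgeR quasi-likelihood). Fgf4 and Dppa5a were the members counted as opposite. Pou5f1 and Sox2, the core factors, were not called (0.10 and −0.07). In Experiment 2, 11 of the 23 were called higher and 4 lower.

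Genes of the formative and primed state were lower more often, 7 of 17 against 2 higher, with a median of −0.25, and the counts in Experiment 2 were 7 and 2 as well. The DNA methyltransferase genes were prominent here. Dnmt3l had 114, 120 and 114 CPM in Trim71KO, 349, 347 and 331 CPM in Ago2KO and 321, 335 and 329 CPM in W. Dnmt3a had 107, 108 and 113 CPM in Trim71KO, 232, 223 and 220 CPM in Ago2KO and 256, 267 and 269 CPM in W. Their log2 fold changes were −1.56 (SE 0.05, adjusted p 8.24e-12) and −1.04 (SE 0.05, adjusted p 5.96e-10) by edgeR quasi-likelihood, and Dnmt3b followed at −0.37. In Experiment 2 Dnmt3a was at −1.10 and Dnmt3l at −0.32. Zic2, a zinc finger gene of the formative state, had 7.75, 6.51 and 7.44 CPM in Ago2KO, above both Trim71KO (3.34, 2.97 and 4.66 CPM) and W (3.22, 4.47 and 4.35 CPM).

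Markers of primitive endoderm, the extraembryonic layer next to the epiblast, were lower in Trim71KO in 8 of 16 and higher in 1, with a median of −0.89. The gene that rose was Rhox5. Experiment 2 had 9 lower and 2 higher. Gata4, a transcription factor of this lineage, had 1.15, 0.889 and 0.936 CPM in Trim71KO, 3.28, 2.84 and 2.44 CPM in Ago2KO and 5.97, 7.17 and 6.57 CPM in W. Cubn, an endocytic receptor, had 0.879, 1.00 and 1.14 CPM in Trim71KO, 2.76, 3.70 and 2.62 CPM in Ago2KO and 15.9, 12.3 and 12.8 CPM in W. Against W, 11 members fell in each knockout, so that the knockouts shared a direction and differed in extent. Lrp2, the partner receptor of Cubn, was an exception: Ago2KO (58.8, 66.5 and 54.1 CPM) overlapped W (70.5, 57.1 and 60.1 CPM), and Trim71KO stood at 18.1, 17.5 and 13.3 CPM. In bulk libraries fewer cells of a type and less RNA per cell cannot be told apart, and the summed level of primitive endoderm markers differed between the groups as given above.

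Basement membrane genes, many of which primitive endoderm also makes, were lower in 10 of 18 and higher in 1 (Fn1), with a median of −0.23. Serpinh1, a collagen chaperone, had 30.4, 29.4 and 32.7 CPM in Trim71KO, 56.4, 54.9 and 58.2 CPM in Ago2KO and 56.0, 59.0 and 62.3 CPM in W. Lama5 and Hspg2, a laminin chain and perlecan, were in the opposite set. Lama5 had 134, 141 and 134 CPM in Trim71KO, 170, 165 and 175 CPM in W and 230, 203 and 201 CPM in Ago2KO, a difference of −0.63 that was −0.05 and not called in Experiment 2, where 7 of the list were lower and 1 higher. Sparc, at −0.66 in Experiment 1, was at 0.09 there.

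None of 14 tested genes of the 2-cell-like state, a rare state in such cultures, was higher in Trim71KO and 7 were lower, with a median of −1.07. Eif1ad7 had 0.803, 0.75 and 0.749 CPM in Trim71KO, 1.48, 1.55 and 1.6 CPM in Ago2KO and 4.67, 3.62 and 3.91 CPM in W. No other gene of the 7 averaged at least 0 log2 CPM over the knockout libraries, so these calls rest mostly on low counts. Against W, 12 members fell in Trim71KO and 11 in Ago2KO. These genes are members of families of near-identical copies, so the split of reads among them is uncertain. With only genes over 1 CPM kept the median was −1.72, with the knockouts fitted alone −1.61, and without replicate 1 of Trim71KO −0.78. Experiment 2 had 12 lower and none higher between the knockouts. Against its control Eif1ad7 went the other way there, above T6B_MUT by 0.74 in Trim71KO_empty and by 2.09 in Ago2KO_empty. Of 10 trophoblast genes 6 were lower and none higher, with a median of −1.04. Only Ascl2 and Tfap2c among the 6 averaged at least 0 log2 CPM over the knockout libraries, so the other calls rest on low counts. Tfap2c, an AP-2 factor, had 17.8, 16.0 and 17.1 CPM in Trim71KO, 23.4, 21.9 and 25.0 CPM in W and 33.3, 35.0 and 31.5 CPM in Ago2KO and was in the opposite set. Of 8 trophoblast genes tested in Experiment 2, 4 were lower and 1 higher.

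**Figure D3:**
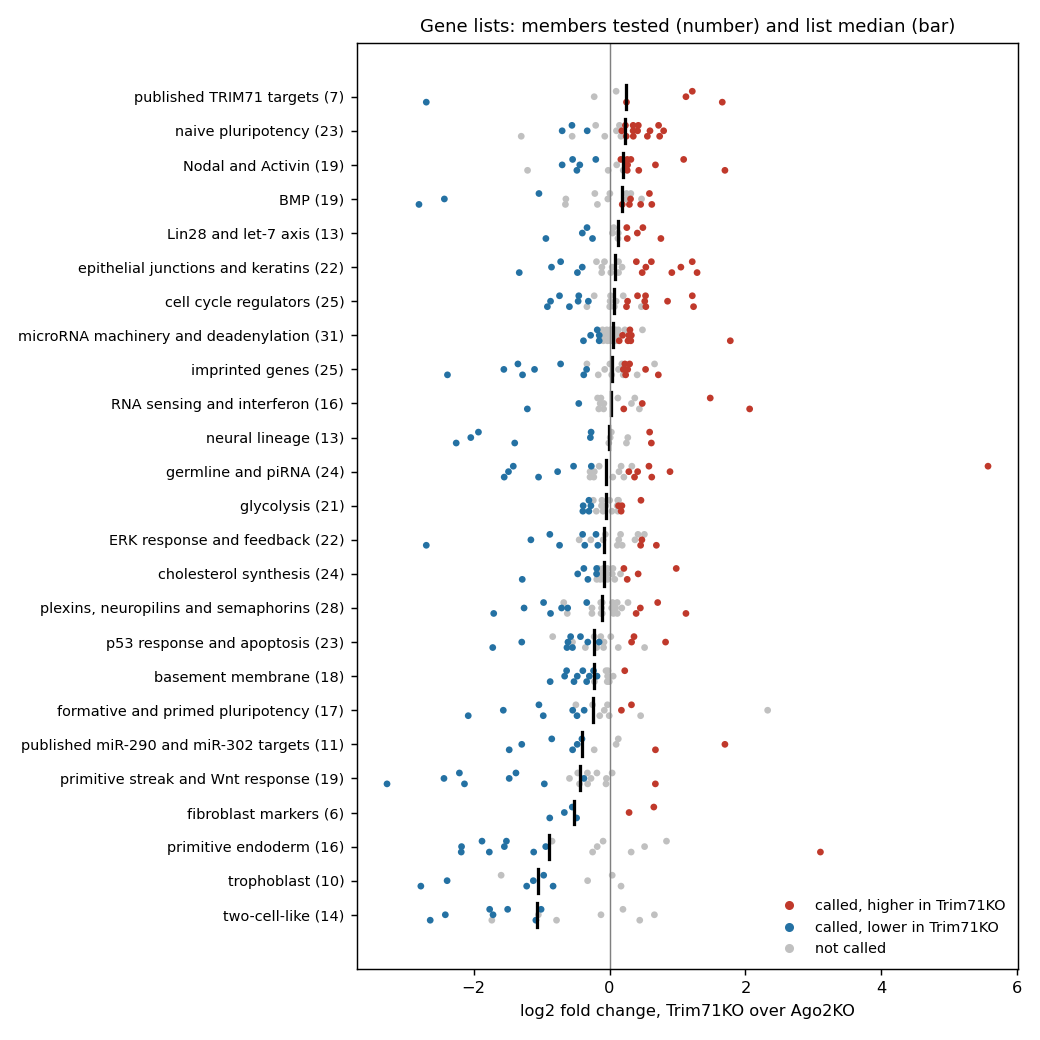
Log2 fold change of Trim71KO over Ago2KO (x axis) for each tested member of 25 gene lists, 1 point per gene, coloured by whether edgeR's quasi-likelihood test called it, with the list median as a bar. Medians run from −1.07 for 2-cell-like genes to 0.25 for published TRIM71 targets, beside 0.01 over all genes tested; 7 of the 25 medians moved by more than their spread between libraries when 1 library was left out.

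Primitive streak and Wnt response genes were lower in 8 of 19 and higher in 1 (Znrf3, a Wnt receptor ligase), with a median of −0.44. Lef1, the Wnt effector transcription factor, had 0.477, 0.334 and 0.520 CPM in Trim71KO, 4.56, 4.92 and 3.77 CPM in Ago2KO and 5.00, 5.38 and 5.12 CPM in W. It was 9.67-fold lower in Trim71KO (log2 −3.27, SE 0.18, adjusted p 4.83e-09, edgeR quasi-likelihood). Notum, a secreted Wnt deacylase, had 16.1, 14.9 and 19 CPM in Trim71KO, 35.9, 28.1 and 33.2 CPM in Ago2KO and 12.5, 13.7 and 14.3 CPM in W. Both knockouts were called above W for Notum, while Axin2, a Wnt target and feedback inhibitor, was called below W in both (−0.89 in Trim71KO and −0.51 in Ago2KO). Wnt5a and Znrf3 were opposite, with log2 fold changes of −1.38 for Wnt5a and 0.67 for Znrf3. The list counted 9 lower and none higher of 17 in Experiment 2.

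Of 19 Nodal and Activin genes 10 were higher and 5 lower in Trim71KO, with a median of 0.20. Inhbb, the activin B subunit, had 385, 364 and 476 CPM in Trim71KO, 205, 173 and 197 CPM in Ago2KO and 197, 223 and 240 CPM in W. Nodal itself had 25.2, 23.7 and 25.4 CPM in Trim71KO, 41.1, 37.5 and 41.5 CPM in Ago2KO and 45.0, 50.5 and 50.3 CPM in W, and was lower in both knockouts than in W. In Experiment 2 Nodal was lower in neither knockout than in T6B_MUT, at 0.04 in Trim71KO_empty and 0.36 in Ago2KO_empty. Between those knockouts it differed by −0.32. Lefty2, which is both a Nodal target and a Nodal inhibitor, had 23.3, 18.1 and 28.0 CPM in Trim71KO, 11.3, 11.5 and 12.5 CPM in W and 6.96, 6.37 and 7.99 CPM in Ago2KO. The knockouts differed by 1.70 (SE 0.14, adjusted p 2.21e-06 by edgeR quasi-likelihood). In Experiment 2 it had 4.06, 6.13 and 8.96 CPM in Trim71KO_empty, 11.6, 12.8 and 14.4 CPM in Ago2KO_empty and 28.3, 25.4 and 30.2 CPM in T6B_MUT. The groups again did not overlap, but their order between the knockouts was the reverse, at −1.02. In that experiment 4 members of the list were higher and 7 lower.

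BMP genes were higher in 6 (31.6%) and lower in 3 (15.8%) of 19, the second share near that of all genes (17.1%). Their median was 0.19, or 0.01 without replicate 3 of Trim71KO, and Experiment 2 had 5 higher and 4 lower. The ligand gene Bmp4 had 50.7, 50.2 and 53.6 CPM in Trim71KO, 36.0, 32.6 and 31.8 CPM in Ago2KO and 31.4, 34.6 and 34.6 CPM in W. The 3 genes that were lower were Smad6, Bmp7 and Nog. Smad6 and Nog encode inhibitors of the pathway, Nog at no more than 0.566 CPM in any library. ERK response and feedback genes were lower in 8 and higher in 3 of 22, with a median of −0.08 that was 0.02 with only genes over 1 CPM kept. The genes higher in Trim71KO than in Ago2KO were Spry1, Spry4 and Dusp6, feedback inhibitors of the pathway. Spry1 had 15.0, 13.6 and 16.5 CPM in Trim71KO, 9.74, 9.48 and 8.81 CPM in Ago2KO and 15.3, 16.0 and 16.5 CPM in W. The difference of Spry1 thus lay with Ago2KO, at −0.77 from W, while Trim71KO was not called against W. The immediate early genes Egr1, Fos and Fosl1 were among those that fell, with Fos at −0.88. In Experiment 2 the ERK list counted 7 higher and 4 lower.

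Published targets of each pathway were followed in both knockouts. Of 7 TRIM71 targets 4 were higher in Trim71KO and 1, Egr1, was lower, with a median of 0.25. In Experiment 2 the counts were 3 higher and 2 lower, with a median of −0.03. Mbnl1, a splicing regulator, had 47.4, 45.9 and 43.4 CPM in Trim71KO, 14.3, 17.1 and 12.3 CPM in Ago2KO and 13.7, 13.2 and 13.5 CPM in W. Plxnb2, a semaphorin receptor, had 139, 140 and 142 CPM in Trim71KO, 66.4, 64.8 and 62.2 CPM in Ago2KO and 51.2, 57.5 and 56.1 CPM in W. Rbl1, the pocket protein p107, had 40.1, 41.9 and 38.0 CPM in Trim71KO and 17.0, 17.9 and 16.7 CPM in Ago2KO. For all 3 the Trim71KO libraries stood more than clear of the other groups, with log2 fold changes of 1.66, 1.12 and 1.22, and E2f7 followed at 0.25. The first 3 were called higher again in Experiment 2, at 1.20, 1.05 and 0.68, while E2f7 was at −0.23 there and not called. Cdkn1a, the p21 inhibitor, and Rbl2 are published targets of both pathways and were not called between the knockouts in Experiment 1. Cdkn1a had 6.63, 7.75 and 7.39 CPM in Trim71KO, 8.78, 9.21 and 7.56 CPM in Ago2KO and 5.95, 4.70 and 6.67 CPM in W, so the knockouts overlapped. Rbl2 was called above W in both, by 0.58 in Trim71KO and 0.49 in Ago2KO, and in Experiment 2 it was called lower in Trim71KO_empty than in Ago2KO_empty (−0.26, adjusted p 0.0431, edgeR quasi-likelihood).

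Of 11 tested genes published as targets of miR-290 or miR-302 members, 6 were lower and 2 higher in Trim71KO, with a median of −0.41. Ei24, an endoplasmic reticulum protein induced by p53, had 66.9, 65.0 and 67.3 CPM in Trim71KO, 96.9, 102 and 99.6 CPM in W and 167, 162 and 158 CPM in Ago2KO. Lats2, a Hippo pathway kinase, had 8.01, 8.78 and 8.47 CPM in Trim71KO, 8.82, 10.3 and 10.3 CPM in W and 15.3, 15.4 and 14.9 CPM in Ago2KO. The difference of Lats2 (−0.85) thus lay with Ago2KO, and that of Ei24 (−1.29, adjusted p 1.02e-10, edgeR quasi-likelihood) was spread over both knockouts. Mbd2, a methyl-CpG binding protein, was also higher in Ago2KO alone against W, by 0.36. Dkk1, a Wnt inhibitor, was among the 6 lower genes, but both knockouts were far below W, Trim71KO by −3.67 and Ago2KO by −2.19. It had 0.0502, 0.111 and 0.146 CPM in Trim71KO and 0.257, 0.297 and 0.332 CPM in Ago2KO, which are few counts. W had 1.43, 1.23 and 1.43 CPM of Dkk1. Rhoc, also among the 6, was called below W in Trim71KO (−0.35) and not called in Ago2KO (0.13). The 2 genes that were higher were Lefty2 and Lefty1, the second at 0.68 in Experiment 1 and −1.48 in Experiment 2. That experiment had 7 of the 11 lower and none higher. Each published list was written from general knowledge with earlier results of these data known.

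Matches to the seed were counted in the 3′ UTRs of 14336 tested genes, of which 16.9% (2416 genes) held at least 1. Among genes lower in Trim71KO 22.1% held a match (704 of 3191), among genes higher 16.3% (494 of 3025) and among genes not called 15.0%. In the opposite set the shares were 25.1% (89 of 355) for genes down in Trim71KO and up in Ago2KO and 19.4% (43 of 222) for the reverse. Among genes that changed by at least 1 the shares were 16.7% for lower and 14.6% for higher genes, both near or below the 16.9% of all genes. Median 3′ UTR length was 1127 bases in lower, 1399 in higher and 1041 in uncalled genes. Among genes averaging at least 2 log2 CPM, 20.4% of those with no match were lower in Trim71KO, 29.3% of those with 1 match and 30.0% of those with 2 or more. UTR length rose over the same classes, with medians of 994, 2302 and 3833 bases, and its part in the shares was not tested. Medians of Ago2KO against W were −0.01, 0.07 and 0.08 in the 3 classes, and those of Trim71KO against W were 0.01, 0.04 and 0.06. The shares called higher in Trim71KO than in Ago2KO were 24.5%, 21.9% and 25.3% in the same classes.

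The microRNA machinery changed in both directions. Of 31 genes for Argonautes, their processing partners and deadenylation 8 (25.8%) were higher and 5 (16.1%) lower, 41.9% in all beside 34.2% of all genes, with a median of 0.05. In Experiment 2 they were 4 and 5, with a median of −0.15. Ago2 was the member with the largest difference. Ago1 had 64.2, 66.1 and 63.1 CPM in Trim71KO, 75.1, 71.8 and 67.9 CPM in Ago2KO and 54.6, 56.0 and 53.6 CPM in W. Tnrc6a had 96.0, 99.5 and 89.8 CPM in Trim71KO, 106, 111 and 106 CPM in Ago2KO and 71.7, 76.5 and 74.0 CPM in W. Both knockouts lay above W for these genes, Ago2KO higher than Trim71KO by small margins (−0.15 and −0.18). Tnrc6b was called above W in both knockouts, by 0.37 and 0.41, and not between them. Tnrc6c (−0.28) and Dicer1 (−0.15) were called lower in Trim71KO, at 103, 107 and 111 CPM and at 160, 170 and 148 CPM in Trim71KO. Ago3 and Ago4 were not called, Ago4 at no more than 0.50 CPM in any of the 9 libraries. The calls of Ago1, Tnrc6a and Dicer1 were lost in some fits that left out 1 library.

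On the Lin28 and let-7 axis 5 of 13 genes (38.5%) were higher and 4 (30.8%) lower, with a median of 0.12 that lay between 0.06 and 0.13 when 1 library was left out. Experiment 2 turned the balance, with 1 higher, 6 lower and a median of −0.27 (all genes 14.7% and 16.9%). Lin28b, which blocks let-7 maturation, had 37.2, 40.3 and 33.7 CPM in Trim71KO, 36.4, 32.4 and 33.7 CPM in W and 21.3, 24.4 and 20.3 CPM in Ago2KO. Its relative Lin28a had 325, 331 and 350 CPM in Trim71KO, 444, 447 and 436 CPM in Ago2KO and 481, 506 and 515 CPM in W. The paralogs thus differed in opposite directions between the knockouts, by 0.76 and −0.40, Lin28b through a low Ago2KO and Lin28a mainly through a low Trim71KO.

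Cell cycle regulators were split, 9 higher and 7 lower of 25 with a median of 0.07, and 7 each in Experiment 2. The E2F activators E2f2 and E2f3 were in the opposite set. E2f2 had 28.0, 27.7 and 29.7 CPM in Trim71KO, 16.6, 18.3 and 17.4 CPM in W and 12.5, 11.7 and 12 CPM in Ago2KO, a difference of 1.24 (SE 0.07, adjusted p 4.83e-09, edgeR quasi-likelihood). E2f3 had 68.0, 67.8 and 69.3 CPM in Trim71KO, 49.1, 51.3 and 51.2 CPM in W and 39.5, 37.0 and 37.0 CPM in Ago2KO. Ccnd1, cyclin D1, was opposite in the other direction, at 185, 182 and 199 CPM in Trim71KO, 214, 227 and 221 CPM in W and 290, 279 and 283 CPM in Ago2KO. Rb1, the retinoblastoma gene, was higher in Ago2KO (18.9, 21.1 and 20.6 CPM) than in Trim71KO (12.1, 12.8 and 11.5 CPM) or W (11.3, 10.2 and 9.19 CPM). Ccne1, cyclin E1, was low in Trim71KO only, at 98.9, 101 and 100 CPM against 181, 183 and 184 CPM in Ago2KO.

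Genes of the p53 response and apoptosis were lower in 9 and higher in 3 of 23, with a median of −0.23, against 6 and 4 with a median of −0.03 in Experiment 2. Bcl2l11, the pro-apoptotic protein BIM, had 7.76, 9.28 and 7.47 CPM in Trim71KO, 27.5, 26.5 and 26.3 CPM in Ago2KO and 24.0, 25.1 and 22.4 CPM in W. Ccng1, cyclin G1, had 301, 301 and 287 CPM in Trim71KO, 429, 477 and 467 CPM in Ago2KO and 286, 262 and 261 CPM in W. BIM was thus low in Trim71KO and cyclin G1 high in Ago2KO. Btg2, an antiproliferative gene, rose by 0.82 in Trim71KO relative to Ago2KO. Ei24 and Zmat3 were the members in the opposite set.

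Epithelial junction and keratin genes were higher in 8 and lower in 5 of 22, with a median of 0.09 that was 0.02 without replicate 3 of Trim71KO, and in Experiment 2 they were higher in 13 and lower in 1. Bspry had 7.96, 8.03 and 10.5 CPM in Trim71KO, 3.88, 3.34 and 3.61 CPM in Ago2KO and 9.69, 10.7 and 11.6 CPM in W. Cldn6, a tight junction claudin, had 9.04, 8.53 and 9.90 CPM in Trim71KO, 4.78, 4.79 and 5.00 CPM in Ago2KO and 11.3, 14.7 and 13 CPM in W. These members, with Cldn7 and the adaptor subunit Ap1m2, were low in Ago2KO, between −1.12 and −1.55 from W. They belong to the 8 higher genes, and none of the 5 lower genes is described. Against W, 12 members of the list were called lower and 4 higher in Ago2KO, where 18.0% of all genes were called in either direction. Cdh1, E-cadherin, was in the opposite set with 233, 238 and 230 CPM in Trim71KO, 206, 196 and 197 CPM in W and 155, 158 and 144 CPM in Ago2KO.

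Imprinted genes were called 7 higher and 8 lower of 25, and 5 higher and 10 lower in Experiment 2. Their median of 0.03 ran from −0.01 to 0.16 when 1 library was left out. Peg10, a retrotransposon-derived gene, had 66.6, 74.6 and 64.4 CPM in Trim71KO, 166, 178 and 155 CPM in Ago2KO and 167, 150 and 142 CPM in W. Dlk1, a Notch-related ligand, and Igf2, a growth factor, had log2 fold changes of −2.38 and −1.55, Dlk1 at no more than 3.58 CPM in any library. Peg10, Dlk1 and Igf2 belong to the 8 lower genes, and none of the 7 higher genes is described. Of 28 plexin, neuropilin and semaphorin genes 4 (14.3%) were higher and 7 (25.0%) lower, 39.3% in all and near the 34.2% of all genes. In Experiment 2 they were 2 and 10. Nrp2, a semaphorin and VEGF co-receptor, was opposite, with 15.4, 18.1 and 15.4 CPM in Trim71KO, 20.5, 23.6 and 21.9 CPM in W and 31.7, 31.1 and 32.7 CPM in Ago2KO.

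Germline and piRNA genes were called 7 higher and 7 lower of 24, and 8 and 4 in Experiment 2. Tdrd12, a Tudor domain gene of the piRNA pathway, had 8.71, 8.45 and 8.22 CPM in Trim71KO, 21.5, 24.0 and 22.2 CPM in Ago2KO and 25.7, 23.9 and 23.9 CPM in W, and was low in Trim71KO alone. Glycolysis genes were 4 higher and 5 lower of 21, 42.9% in all beside 34.2% of all genes, and 2 and 7 in Experiment 2. Cholesterol synthesis genes were 4 higher (16.7%) and 6 lower (25.0%) of 24, the first share near the 17.1% of all genes, and Experiment 2 had the reverse balance, with 8 higher and 2 lower. RNA sensing and interferon genes were 4 higher (25.0%) and 2 lower (12.5%) of 16, and 3 each in Experiment 2. In cholesterol synthesis Hsd17b7, a sterol reductase, had the largest increase, with 34.4, 36.3 and 33.0 CPM in Trim71KO against 16.9, 19.3 and 16.5 CPM in Ago2KO. In the interferon list Bst2, the antiviral tetherin, fell (−1.21) and Stat2 rose (0.48). On the longer list of fibroblast markers 2 were higher and 4 lower of 6 tested, and 1 and 2 in Experiment 2. Its median of −0.52 was −0.18 without replicate 1 of Ago2KO.

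The calls were unevenly spread over chromosomes. On chromosome 8, 37.5% of 1060 tested genes were higher in Trim71KO and 7.45% lower, with a median log2 fold change of 0.19. The median of chromosome 8 was 0.19 in Trim71KO against W, 0.00 in Ago2KO against W and 0.08 in Experiment 2. On the other autosomes the share of higher genes ran from 10.7% (chromosome 7) to 21.8% (chromosome 1). Of the opposite genes, 32 of the 235 up in Trim71KO lay on chromosome 8 and 8 of the 391 down. Without chromosome 8 genes, 210 and 369 opposite genes were counted. The median over TRIM71 targets, which include Rbl2 on chromosome 8, was then 0.70. What sets chromosome 8 apart was not tested.

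**Figure D4:**
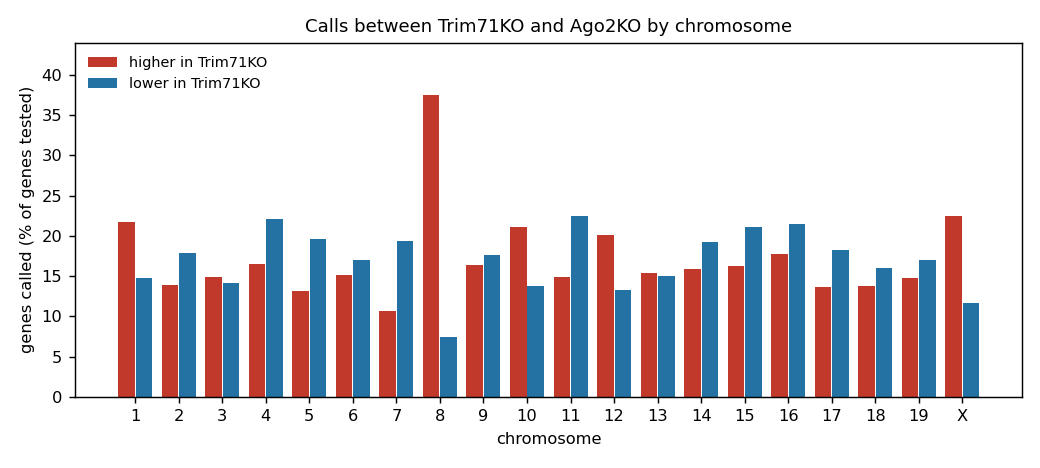
Percent of tested genes called higher (red) or lower (blue) in Trim71KO than in Ago2KO, by chromosome, for chromosomes with at least 100 tested genes. Chromosome 8 has the highest share of higher genes (37.5%) and the lowest share of lower genes (7.45%).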

How the data were processed

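Total RNA libraries of 7 groups with 3 replicates each were used as 1 deposited table of 22512 genes. The authors deposited raw read counts and RPKM values per library, per the file headers. Per the submitters' processing notes, bcl2fastq 2.17, STAR 2.7.3a and the builds GRCm38 and mm10 were used. The annotation and whether counting used strand are not given in the sources used here. Symbols and coordinates came from GENCODE M21 (GRCm38), in which 22480 gene IDs were found.

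Raw counts entered all tests, and RPKM values served only for marker sums. The 9 libraries of Experiment 1 (29.6 M to 50.8 M counts) were fitted together, and the 12 of Experiment 2 together (33.9 M to 40.7 M counts in the knockouts), with edgeR 4.0.16 in R 4.3.3 (quasi-likelihood, robust, TMM, filterByExpr with a minimum count of 10, Benjamini-Hochberg, adjusted p under 0.05). Opposite genes were called against W with opposite signs and called between the knockouts. Tests of a difference between experiments used all 21 libraries. Replicate pairs of Experiment 1 differed by more than sampling noise (chi-square per degree of freedom 3.71 to 27.6).

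Named genes were the 8 largest increases and decreases and the 8 opposite genes of each direction with the largest smaller change, drawn from called genes that had a symbol, averaged at least 2 log2 CPM and did not overlap. To these came up to 4 called members of each of 25 lists, the Argonaute, Tnrc6, Dicer1 and Trim71 genes and both target lists. Further members were named after their values were seen. The members and lists were chosen with earlier results of these data known. On data simulated for this comparison (20888 genes), 110 genes were changed by 0.5 and 90 by 1 log2 unit, all averaging at least 2 log2 CPM. Of these changes 89.1% and 98.9% were recovered, with 16 false calls. Recovery at lower CPM, or with as many changed genes as were called in the data, was not tested. Alternatives were DESeq2 1.42.0, RLE factors, other filters, the replicate number as a block, the knockouts alone, no chromosome 8 genes, a fold threshold and each library left out.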

Additional observations from a re-analysis of the deposited data

Results flagged for a closer look

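For 8 named genes the difference between the knockouts had opposite signs in the 2 experiments, and the difference of the differences was called by edgeR's quasi-likelihood test over all 21 libraries, an addition chosen after the data were seen. Lefty2 was at 1.70 in Experiment 1 and −1.02 in Experiment 2, 2.71 apart (adjusted p 2.14e-05, edgeR). Lefty1, its neighbour and paralog, was at 0.68 and −1.48, 2.14 apart (adjusted p 0.000159). Both inhibit Nodal, and both were called in each experiment. Stra8, a meiotic entry gene, differed by −1.75 between the experiments (−1.49 and 0.25), Map2 by 0.85, Sparc by −0.76, Pdgfrb by −0.70, Igf2bp3 by 0.51 and Tarbp2 by −0.47. For these 6 genes the value of Experiment 2 was not called on its own. The experiments also differ in transfection, so plasmid and experiment cannot be told apart.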

How the results depend on the processing

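The counts of genes higher and lower, opposite in each direction and called again in Experiment 2 stayed within 1.5 times under DESeq2, RLE factors, both other filters and the removal of chromosome 8 genes. With the knockouts fitted alone, which leaves W out and gives no opposite counts, the other counts stayed within 1.5 times too. With a fold threshold of 1 log2 unit they were 443, 785, 6, 13, 6 and 10. With 1 library left out in turn they ranged from 2974 to 3756 higher, 2962 to 3758 lower, 142 to 241 and 255 to 386 opposite, and 128 to 209 and 227 to 343 called again in Experiment 2, the lowest values of the opposite and repeated counts without W replicate 2. With the replicate block they were 3588, 3600, 217, 372, 186 and 326. The labels give the numbers no meaning, and same-numbered Trim71KO and Ago2KO libraries had correlated deviations of −0.31 to 0.66, so the numbers were not taken to pair the samples. Medians of 7 of the 25 gene lists moved by more than their spread when 1 library was left out: −1.27 to −0.78 for 2-cell-like genes, −0.21 to −0.01 for neural genes, −0.51 to −0.18 for fibroblast markers, 0.01 to 0.23 for BMP, 0.06 to 0.13 for Lin28 and let-7, 0.02 to 0.14 for epithelial and −0.01 to 0.16 for imprinted genes. The sign changed for imprinted, germline (−0.10 to 0.04) and interferon genes (−0.03 to 0.08). Under other alternatives the medians that moved were those of fibroblast markers (−0.31 with no filter), 2-cell-like genes (−1.72) and interferon genes (−0.12) with only genes over 1 CPM kept, 2-cell-like genes with the knockouts alone (−1.61), and neural genes (−0.26) and TRIM71 targets (0.70) without chromosome 8. No named gene reversed. Calls of Tgfbr2, Dicer1, Ago1, Irf9, Pdgfrb, Prkra, Tnrc6a, Pfkfb3, Lefty1 and E2f7 were lost in at least 1 fit other than the fold threshold, and the cause was not tested. With 3 libraries a group, small differences of genes at low CPM are the least certain.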
